A study of Homo sapiens with 2 samples.

Results

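The 10 genes described here serve cystine uptake, glutathione synthesis, recycling and use, the thioredoxin and peroxiredoxin system, and quinone reduction. They are SLC7A11, SLC3A2, GCLC, GCLM, GSS, GSR, GPX4, TXNRD1, NQO1 and SRXN1. They were chosen by symbol, with earlier results of these data known. All 10 were found among the 12075 protein-coding genes of the deposited table. The cells were LNCaP, a human prostate cancer line that responds to androgen and derives from a metastasis to a lymph node, profiled by RNA-seq, with wild type given as genotype. For the nc library they had received CM from nc-YY1 M2 macrophages, and for the oe library CM from oe-YY1 M2 macrophages. The abbreviations nc, oe and CM are given without explanation, and the treatment field of both samples adds the word cocultured. M2 is a polarisation state of macrophages, and YY1 is a DNA-binding protein with zinc fingers. The series title concerns YY1 in tumor-associated macrophages, IL-6 and the progression of prostate cancer.

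Each group had 1 library, and the differences therefore carry no replicate check, no error and no p-value. Values are FPKM, a count of fragments divided by transcript length and library size, and the number of reads behind them is unknown. A log2 ratio is the difference of log2(FPKM + 1), oe minus nc, which makes differences of low genes look smaller. Genes are called higher or lower, in the oe library relative to the nc library, where FPKM + 1 differed by 2-fold or more, and 11126 genes that reached 1 FPKM in the higher library were measured in this sense. Of these, 6.46% were called higher and 5.83% called lower, and their median log2 ratio was -0.01.

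Cystine enters cells through system xc-, a membrane antiporter that exchanges it for glutamate, and is reduced inside to cysteine. Glutamate-cysteine ligase joins cysteine to glutamate, and glutathione synthetase adds glycine to make glutathione, which peroxidases use to reduce peroxides. Thioredoxin is a parallel carrier of reducing power, and both systems draw on NADPH. Many of the genes involved are known targets of NRF2, the stress factor encoded by NFE2L2, which is held back by KEAP1 and binds antioxidant response elements (AREs) together with small MAF proteins. SLC7A11 is also a known target of ATF4, a factor of the amino acid response.

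Promoter sequences are shown for the windows that held the core of the ARE, TGACNNNGC on either strand, and for GCLC as the partner of GCLM without it. Each runs from 120 bases before a RefSeq start site to the first transcribed base, on GRCh38.p14 and in the direction of the gene, with capitals marking matches to the core. The numbered starts are alternative start sites of the same gene, counted in the direction of transcription.
GCLM, chr1:93909430-93909550, minus strand: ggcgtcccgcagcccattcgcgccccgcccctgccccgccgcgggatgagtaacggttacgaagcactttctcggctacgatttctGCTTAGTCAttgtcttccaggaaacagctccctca
TXNRD1 start 1, chr12:104215659-104215779, plus strand: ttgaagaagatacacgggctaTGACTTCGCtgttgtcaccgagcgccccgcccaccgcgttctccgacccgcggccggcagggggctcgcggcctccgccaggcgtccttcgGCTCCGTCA
TXNRD1 start 2, chr12:104286912-104287032, plus strand: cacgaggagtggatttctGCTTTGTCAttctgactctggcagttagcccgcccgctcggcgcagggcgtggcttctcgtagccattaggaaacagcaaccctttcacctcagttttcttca
SLC3A2 start 3, chr11:62881579-62881699, plus strand: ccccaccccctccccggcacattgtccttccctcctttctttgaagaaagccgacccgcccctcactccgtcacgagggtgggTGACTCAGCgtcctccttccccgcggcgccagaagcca
GCLC, chr6:53545101-53545221, minus strand: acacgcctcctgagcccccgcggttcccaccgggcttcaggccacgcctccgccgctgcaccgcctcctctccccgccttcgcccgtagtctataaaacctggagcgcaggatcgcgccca

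SLC7A11, TXNRD1 and GCLM were called higher, and 0 of the 10 genes were called lower. They carry the cystine transport step, the reduction of thioredoxin and the regulatory subunit of glutamate-cysteine ligase. The other 7 members had log2 ratios from -0.56 to 0.53, of which 3 were above 0 and 4 below. All 10 reached 1 FPKM in both libraries, so none passed the filter through 1 library alone. The median log2 ratio of the 10 genes was 0.22, beside -0.01 for all genes. At a 2-fold difference, 3 of 10 genes were thus higher, where 6.46% of all genes were. Because the 10 genes were chosen with earlier results of these data known, this comparison is a description only. In bulk RNA, a larger share of cells that express a gene and more RNA per cell cannot be told apart.

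**Figure D1:**
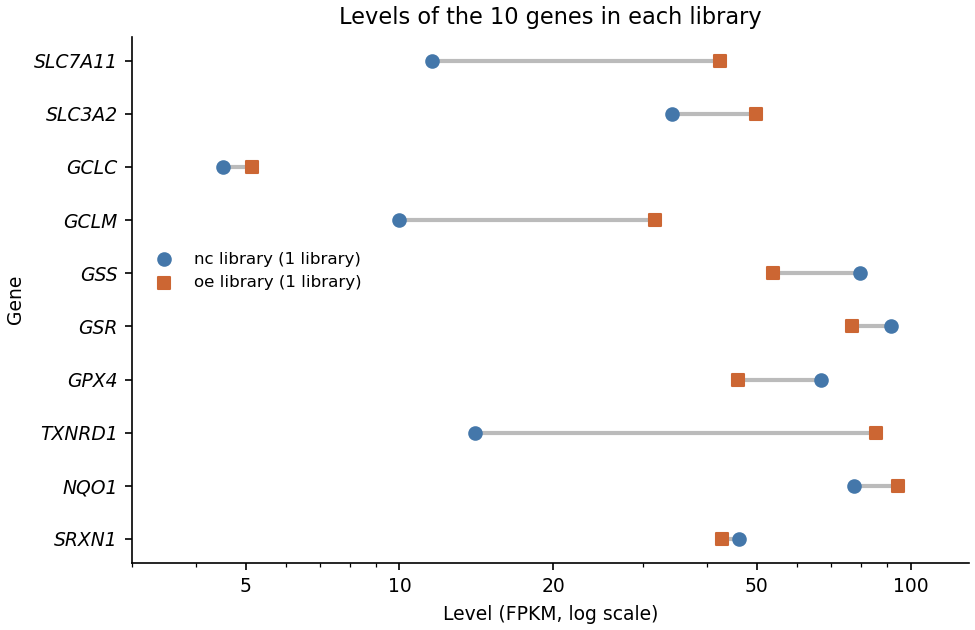
Level of each of the 10 genes in FPKM (horizontal log axis), with a circle for the nc library, a square for the oe library and a line joining them. SLC7A11, GCLM and TXNRD1 have the widest gaps, with the oe library higher, while GSS and GPX4 lie lower in the oe library.

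Both subunits of system xc- were higher in the oe library, by unequal amounts. Gene coordinates are given as deposited, on a build inferred to be GRCh37 and so not comparable with those of the promoter windows. SLC7A11, the transporter subunit that gives the complex its specificity for cystine (ENSG00000151012.13_2, chromosome 4, 139085251 to 139163503, minus strand), stood at 11.6 FPKM in the nc and 42.4 FPKM in the oe library. Its log2 ratio was 1.78, with 239 of the 11126 genes above it. SLC3A2, the heavy chain that brings SLC7A11 to the cell surface (ENSG00000168003.16_3, chromosome 11, 62623574 to 62656347, plus strand), stood at 34.2 and 49.9 FPKM, a log2 ratio of 0.53 that fell short of 2-fold. SLC3A2 is shared with other transporters, among them SLC7A5, a carrier of large neutral amino acids, which stood at 52.3 and 58.8 FPKM (log2 ratio 0.17). The FPKM of SLC7A11 per FPKM of SLC3A2 was 0.339 under nc and 0.850 under oe. By distance in log2(FPKM + 1) over the 2 libraries, the genes nearest to SLC7A11 in level were SEL1L3 (10.9 and 40.7 FPKM), GTPBP2 (10.98 and 40.2 FPKM) and CLU (10.5 and 41.9 FPKM), at distances of 0.10, 0.11 and 0.13. With 2 libraries this likeness says no more than that their levels lay close.

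The subunits of glutamate-cysteine ligase, the enzyme of the rate-limiting step of glutathione synthesis, did not differ alike. GCLM, the modifier subunit that raises the activity of the enzyme (ENSG00000023909.9_2, chromosome 1, 94350761 to 94375012, minus strand), stood at 9.98 FPKM in the nc and 31.7 FPKM in the oe library, a log2 ratio of 1.57. GCLC, the catalytic subunit (ENSG00000001084.10_3, chromosome 6, 53362139 to 53481768, minus strand), stood at 4.51 and 5.14 FPKM, a log2 ratio of 0.16. GCLC had the lowest level of the 10 genes in both libraries. The FPKM of GCLM per FPKM of GCLC was 2.21 under nc and 6.16 under oe. GCLM was the called member closest to the 2-fold limit, and in the upward direction SLC3A2 was the nearest one short of it. GCLM also missed a limit of 3-fold, which 2.79% of all genes passed upward, at 2.97-fold on the scale of FPKM + 1.

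GSS, glutathione synthetase, which completes the tripeptide (ENSG00000100983.9_2, chromosome 20, 33516233 to 33543620, minus strand), stood at 79.5 FPKM in the nc and 53.7 FPKM in the oe library, a log2 ratio of -0.56. It lay opposite in direction to GCLM and SLC7A11 but within 2-fold. GSS stood far above the catalytic ligase subunit in both libraries, at 17.6 FPKM per FPKM of GCLC under nc and 10.4 under oe. The 500 genes nearest to GSS in mean level had a median log2 ratio of -0.28, so genes of its level were on the whole lower in the oe library.

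The enzymes that recycle and spend glutathione differed by less than 2-fold. GSR, glutathione reductase, which returns oxidised glutathione to its reduced form with NADPH (ENSG00000104687.12_3, chromosome 8, 30535578 to 30585443, minus strand), stood at 91.4 FPKM in the nc library, the highest of the 10 genes there, and 76.8 FPKM in the oe library. Its log2 ratio was -0.25, and it turned to 0.07 when the median of the 500 genes of like level was subtracted. GPX4, the peroxidase that reduces lipid hydroperoxides in membranes and restrains ferroptosis (ENSG00000167468.16_3, chromosome 19, 1103925 to 1106790, plus strand), stood at 66.7 and 45.9 FPKM, a log2 ratio of -0.53. With the median of the 500 genes of like level subtracted, the log2 ratio of GPX4 was -0.26. GPX1, a soluble glutathione peroxidase outside the 10 genes, lay the other way, at 57.1 and 102 FPKM (0.82). GPX4 per GPX1 was 1.17 under nc and 0.451 under oe.

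TXNRD1, cytosolic thioredoxin reductase (ENSG00000198431.15_3, chromosome 12, 104609557 to 104744083, plus strand), had the highest log2 ratio of the 10 genes. It stood at 14.03 FPKM in the nc and 85.5 FPKM in the oe library, a log2 ratio of 2.52, and 100 of the 11126 genes had a higher one. By level it moved from the seventh of the 10 genes in the nc library to the second in the oe library, and from rank 2914 to rank 309 among the 12075 listed genes. Its substrate and its mitochondrial relative differed by less than 2-fold. TXN, thioredoxin itself, stood at 176 and 133 FPKM (log2 ratio -0.39), and TXNRD2, the mitochondrial reductase, at 10.7 and 10.1 FPKM (-0.08). With genes of like level subtracted, the log2 ratio was -0.03 for TXN and -0.07 for TXNRD2. TXNRD1 per TXN was 0.0800 under nc and 0.642 under oe, and TXNRD1 per GSR was 0.153 and 1.11. The deposited coordinates place EID3 within TXNRD1 on the same strand, at 0.734 and 2.08 FPKM, so reads of TXNRD1 and EID3 may be divided between them.

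**Figure D2:**
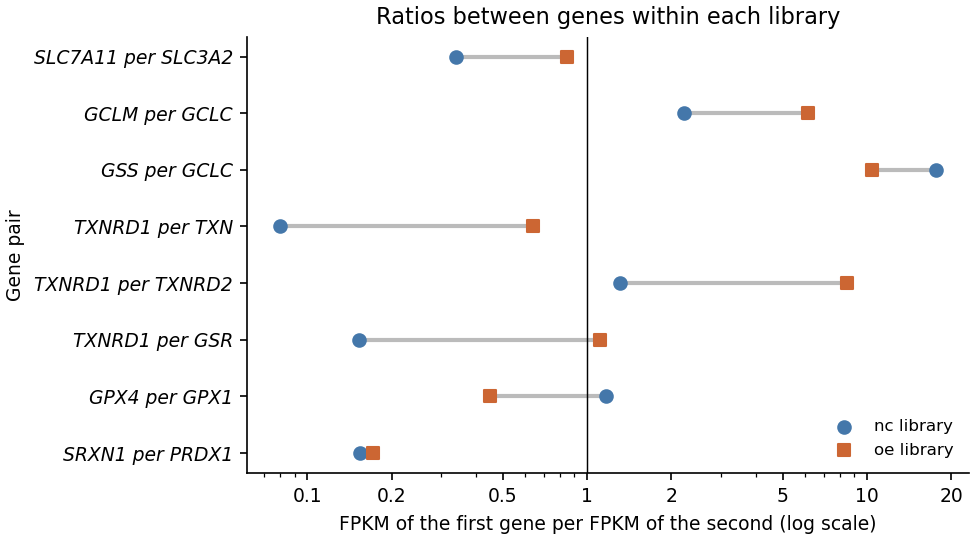
FPKM of 1 gene per FPKM of another within each library (horizontal log axis), with a circle for the nc library and a square for the oe library. TXNRD1 per TXN shows the widest gap, from 0.0800 to 0.642, and SRXN1 per PRDX1 the narrowest.

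NQO1 and SRXN1, commonly used as NRF2 target genes, differed by less than 2-fold. NQO1, a quinone reductase that uses NADH or NADPH (ENSG00000181019.12_2, chromosome 16, 69740899 to 69760854, minus strand), stood at 77.5 FPKM in the nc and 94.7 FPKM in the oe library, the highest of the 10 genes there, with a log2 ratio of 0.28. SRXN1, sulfiredoxin, which repairs over-oxidised peroxiredoxins (ENSG00000271303.1_3, chromosome 20, 627259 to 634014, minus strand), stood at 46.3 and 42.7 FPKM. Its log2 ratio of -0.11 turned to 0.01 after both libraries were set to 1 common FPKM sum and to 0.12 with genes of like level subtracted, so no direction is given for it. The log2 ratio of NQO1 was 0.61 with genes of like level subtracted. The predicted gene AL121758.1 overlaps SRXN1 on the same strand, with 1.51 FPKM in the oe library and a value near 0 in the other. SRXN1 per PRDX1, the peroxiredoxin it acts on with the highest level here, was 0.154 and 0.172.

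**Figure D3:**
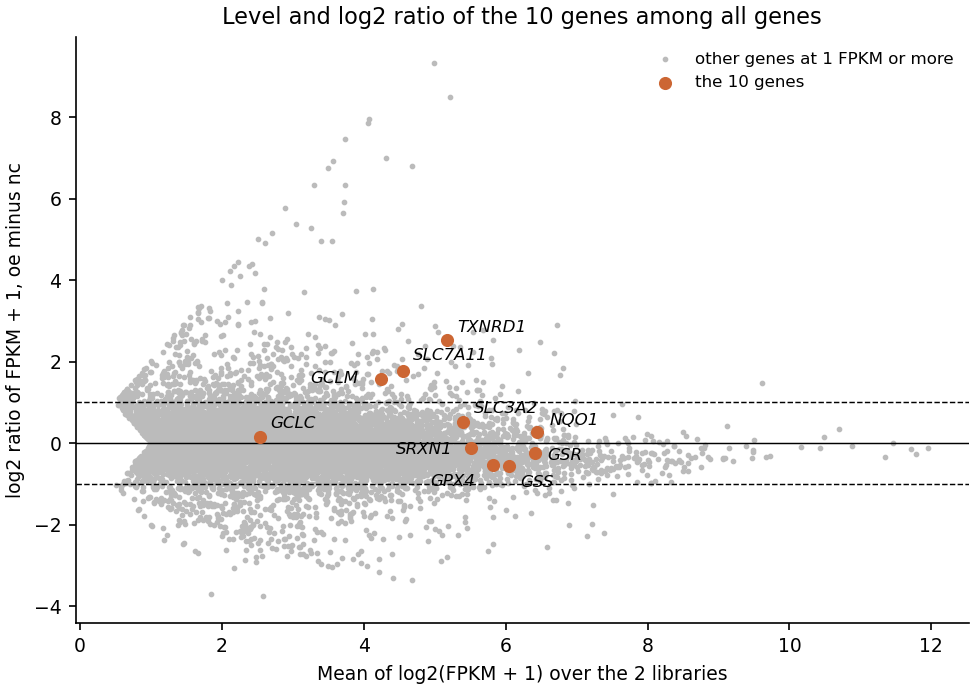
Mean of log2(FPKM + 1) over the 2 libraries (horizontal axis) and log2 ratio of FPKM + 1, oe minus nc (vertical axis), for all genes at 1 FPKM or more in the higher library (grey) and the 10 genes (orange), with dashed lines at a 2-fold difference. TXNRD1, SLC7A11 and GCLM lie above the upper dashed line and the other 7 between the lines.

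The authors' deposited tables of genes with a fold of at least 1.5 held 1776 higher and 1735 lower genes. The authors' deposited table of higher genes listed TXNRD1 at 5.75-fold, SLC7A11 at 3.44-fold and GCLM at 2.97-fold, as linear ratios of FPKM + 1, and their table of lower genes listed 0 of the 10. At 1.5-fold 15.3% of all genes were higher and 15.2% lower. GSS, at -0.56, was the member nearest to that limit from below.

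Of the 10 genes, 7 had promoter windows of 300 bases in the RefSeq table (250 bases before the start and 50 after), which gave 12 windows because SLC3A2, GPX4 and TXNRD1 have several starts. SLC7A11, GSS and GSR are named only. The ARE core TGACNNNGC was found in 4 of these 12 windows, beside 13.3% of 35116 windows of all genes. In GCLM it lay 34 to 26 bases before the start, on the opposite strand. TXNRD1 had it at both starts, 99 to 91 bases before the first, again from 8 bases before that start to its first base, and 102 to 94 bases before the second. In SLC3A2 the match 37 to 29 bases before the third start also held the AP-1 motif TGANTCA, whose letters overlap the core there, and which 7.71% of all windows hold. The ATF4 motif TGATGNAA was found in that SLC3A2 window alone, 38 to 45 bases after the start, beside 3.62% of all windows. NQO1, GCLC, GPX4 and SRXN1 windows held none of the 3 motifs, which says only that these letters are not within these windows. GCLM and TXNRD1, with the core, were called higher, and SLC3A2, also with it, was not. A match is a run of letters and not a measured binding site.

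**Figure D4:**
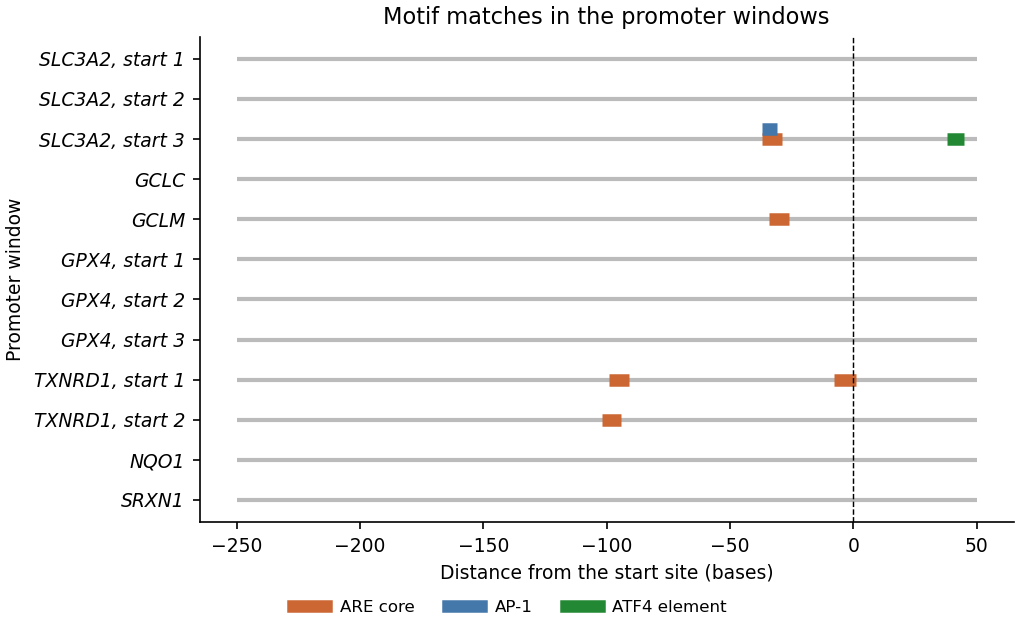
Distance in bases from the start site (horizontal axis) of matches to the ARE core (orange), the AP-1 motif (blue, drawn slightly above the line) and the ATF4 motif (green) in the 12 promoter windows (grey lines). Matches lie in the windows of SLC3A2 start 3, GCLM and both starts of TXNRD1.

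GPX4 and TXNRD1 are both selenoproteins, in which a TGA codon inside the reading frame is read as selenocysteine in place of a stop. The sequences around that codon are shown because the 2 genes share it while their levels differed in opposite directions, GPX4 within 2-fold. The sequences come from GENCODE 29 transcripts on GRCh38 and the plus strand, with capitals for the codon. In TXNRD1 it is codon 648 of 649, in the last exon, so the coding sequence ends shortly after it, and in GPX4 it is codon 73 of 197, in exon 3 of 7.
GPX4, chr19:1105391-1105417: gtggcctcccagTGAggcaagaccgaa
TXNRD1, chr12:104348401-104348421: caggctggctgcTGAggttaa
Of all genes, 6.46% were called higher and 5.83% lower. Of 21 other measured genes for selenoproteins and their synthesis, 1 was called higher and 1 called lower, with a median log2 ratio of 0.04. The higher was SELENOM, a selenoprotein of the endoplasmic reticulum (15.3 and 35.4 FPKM), and the lower SELENOF, another of that compartment (43.8 and 18.8 FPKM). EEFSEC, the elongation factor that delivers selenocysteine to ribosomes, stood at 17.4 and 9.38 FPKM.

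The genes that control NRF2 did not differ in 1 direction. NFE2L2, which encodes NRF2, stood at 8.18 FPKM in the nc and 4.70 FPKM in the oe library (log2 ratio -0.69), and KEAP1, the adaptor that marks NRF2 for degradation, at 26.1 and 20.8 FPKM (-0.31). BACH1, a repressor that competes for AREs, stood at 1.49 and 5.15 FPKM (1.30). SQSTM1, the autophagy receptor p62, which binds KEAP1 and is itself an NRF2 target, stood at 58.0 and 211 FPKM (1.84). The small MAF partners differed among themselves, with MAFG at 8.20 and 12.8 FPKM (0.58), MAFK at 8.90 and 8.11 FPKM (-0.12) and MAFF at 0.0988 and 1.40 FPKM (1.13). Of the 12 measured regulators, 3 were called higher and 0 lower, where 6.46% and 5.83% of all genes were. The median log2 ratio of the 12 was 0.28. MAFF lay under 1 FPKM in the nc library, so it was measured only because it was higher. Over the 11 regulators at 1 FPKM or more in both libraries the median was 0.19. Of these, 2 were called higher, where 4.54% of all such genes were.

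Of 22 other measured NRF2 targets, 6 were called higher and 0 lower, where 6.46% and 5.83% of all genes were. The median log2 ratio of the 22 was 0.52. HMOX1, the inducible heme oxygenase, stood at 11.7 FPKM in the nc and 65.2 FPKM in the oe library (2.38), and FTH1, the heavy chain of the iron store ferritin, at 472 and 1306 FPKM (1.47). Of the aldo-keto reductases, AKR1C1 had 0.0387 and 4.499 FPKM and AKR1C2 had 0.0795 and 5.81 FPKM, and reads may be shared among these closely similar copies. AKR1C1, AKR1C2 and AKR1C3 lay under 1 FPKM in the nc library, so they were measured only because they were higher. Over the 19 targets at 1 FPKM or more in both libraries the median was 0.06, and 3 were called higher, where 4.54% of all such genes were.

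**Figure D5:**
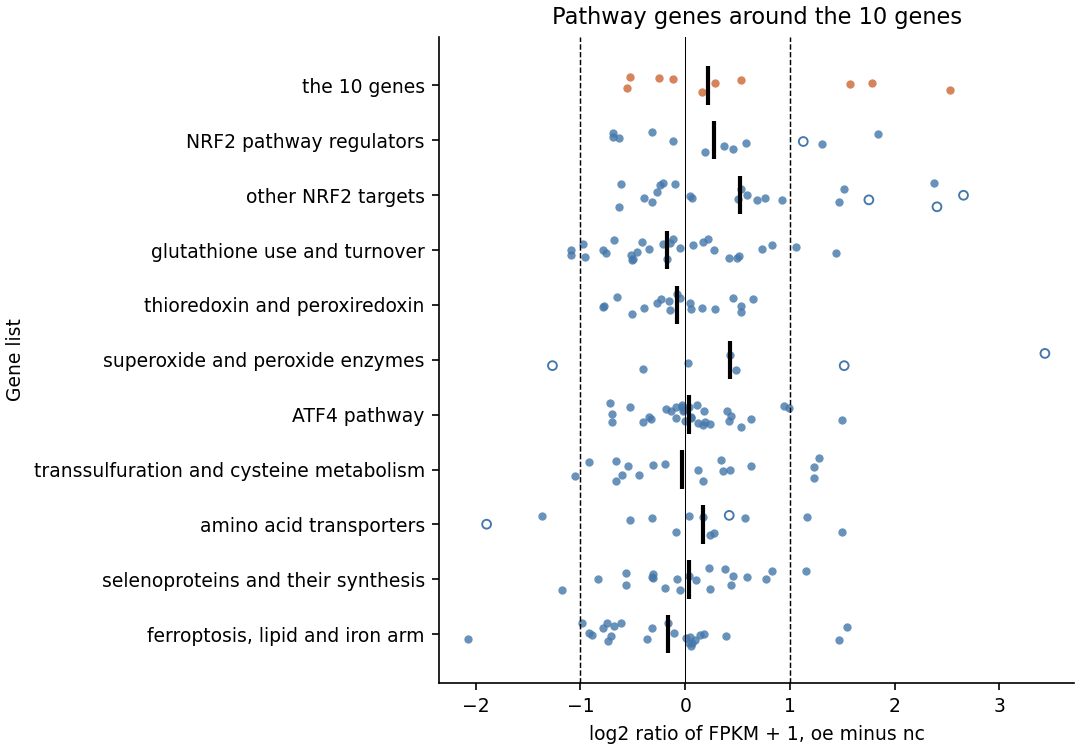
Log2 ratio of FPKM + 1, oe minus nc (horizontal axis), of each measured gene of 11 lists (rows), with a black bar at the median of each list and dashed lines at a 2-fold difference. Open circles are genes under 1 FPKM in 1 library, and the 10 genes, in orange, have 3 points beyond the upper line and none beyond the lower.

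NADPH, which GSR, TXNRD1 and NQO1 spend, is supplied mainly by the pentose phosphate pathway and malic enzyme. ME1, the cytosolic malic enzyme, stood at 34.5 FPKM in the nc and 66.4 FPKM in the oe library (log2 ratio 0.92). TALDO1, transaldolase, stood at 111 and 94.3 FPKM (-0.24), and RPIA, another enzyme of the pentose phosphate pathway, at 17.1 and 9.49 FPKM (-0.78). All of these fell short of 2-fold. With genes of like level subtracted, the log2 ratio was 1.16 for ME1, past 2-fold, 0.11 for TALDO1 and -0.72 for RPIA.

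Genes of the ATF4 pathway mostly differed by less than 2-fold, as did 9758 of all 11126 measured genes. ATF4 itself stood at 296 FPKM in the nc and 294 FPKM in the oe library. Of 33 measured genes of its pathway, 1 was called higher and 0 lower, with a median log2 ratio of 0.04. The higher was SLC38A2, a transporter of neutral amino acids, at 23.9 and 69.5 FPKM (1.499). PPP1R15A, a phosphatase subunit that ends the stress response, stood at 2.22 and 5.40 FPKM (0.99), and CEBPB, a transcription factor, at 33.3 and 65.0 FPKM (0.94), both short of 2-fold.

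Other routes for cysteine and for amino acids were mixed. Of all genes, 6.46% were called higher and 5.83% lower. Of 18 measured genes of transsulfuration and cysteine metabolism, 3 were called higher and 1 lower, with a median log2 ratio of -0.03. They were SQOR, which oxidises hydrogen sulfide (6.60 and 17.4 FPKM), SUOX, sulfite oxidase (1.72 and 5.38 FPKM), and AHCYL1, a relative of the hydrolase AHCY (7.19 and 18.2 FPKM), while AHCY stood at 107 and 78.8 FPKM. The lower was GNMT, glycine N-methyltransferase. Of 13 measured amino acid transporters outside the 10 genes, 2 were called higher and 2 lower, with a median of 0.17. Over the 11 at 1 FPKM or more in both libraries, 2 were called higher and 1 lower. The 2 higher included SLC38A2 (23.9 and 69.5 FPKM), which was also counted above among the ATF4 genes. SLC7A2 lay under 1 FPKM in the oe library, so it was measured only because it was higher in the nc library. SLC7A2, a carrier of cationic amino acids in the same family as SLC7A11, stood at 4.34 and 0.435 FPKM (-1.90), SLC43A1, a carrier of neutral amino acids, at 51.7 and 19.4 FPKM (-1.37), and SLC1A5, a glutamine carrier, at 69.5 and 47.8 FPKM (-0.53).

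The wider sets of enzymes that use glutathione and thioredoxin also mostly differed by less than 2-fold, as did 9758 of all 11126 measured genes. Of 29 measured genes of glutathione use and turnover, 2 were called higher and 2 lower, with a median log2 ratio of -0.18. GSTA4, a glutathione transferase of lipid aldehydes, stood at 5.05 and 15.4 FPKM (1.44), GLO1, which detoxifies methylglyoxal with glutathione, at 180.3 and 84.3 FPKM (-1.09), and GLRX2, a mitochondrial glutaredoxin, at 34.0 and 15.4 FPKM (-1.09). Of 19 measured genes of the thioredoxin and peroxiredoxin list, 0 were called higher and 0 lower, with a median of -0.08. PRDX1 stood at 299.7 and 248 FPKM (-0.27), and PRDX6, a peroxiredoxin that reduces phospholipid peroxides, at 303 and 193 FPKM (-0.65). TXN2, the mitochondrial thioredoxin, stood at 54.0 and 31.1 FPKM (-0.78), and SESN1, a sestrin, at 8.16 and 4.32 FPKM (-0.78). Subtracting genes of like level gave 0.09 for PRDX1, -0.29 for PRDX6, -0.54 for TXN2 and -0.77 for SESN1.

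Markers were set beside these values. All 12 luminal prostate markers were measured, of which 6 were called lower and 1 higher, where 5.83% and 6.46% of all genes were. KLK3, prostate-specific antigen, stood at 358 and 77.6 FPKM. Of 20 macrophage and leukocyte markers 15 were not analysed here, and the 5 listed summed to 90.6 FPKM in the nc and 127 FPKM in the oe library, most of it LCP1 (89.9 and 114 FPKM). CTSS stood at 0.0409 and 5.87 FPKM, CD68 at 0.632 and 4.18 FPKM and ITGAM at 0.00787 and 2.34 FPKM. These lay under 1 FPKM in the nc library, so they were measured only because they were higher. LYZ, at 0.0382 and 0.603 FPKM, lay under 1 FPKM in both libraries, and no listed marker was at 0. LCP1, the 1 marker at 1 FPKM or more in both libraries, had a log2 ratio of 0.33. The part of macrophage RNA in the values of the 10 genes was not tested.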

How the data were processed

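RNA-seq values of 2 LNCaP libraries, 1 per group, were used, and the groups were taken from the sample titles. Per the labels' protocols, libraries were built from 2 ug of total RNA with kits for mRNA isolation, rRNA removal and stranded preparation. An adipogenic protocol and a day of 0 also stand in the labels and were not used. The FPKM values are the authors' deposited ones, per the file headers. StringTie 2.1.0 and the build mm10 are named in the submitters' processing notes, and no aligner is named in the sources used here. The genes are nonetheless human. Of 12075 identifiers 11946 end as GENCODE identifiers mapped to GRCh37 do, and 0 of the 10 genes had the same start and end in GENCODE 29, so GRCh37 is inferred and gene coordinates are printed as deposited. Per the file headers, the authors' tables of changed genes hold log2 fold changes, linear fold ratios, p-values and q-values. Every deposited p-value is 1, and none was used. The authors' prefixed FPKM columns in these tables hold log2(FPKM + 1), as checked on the values. All 12075 genes were protein-coding with at least 0.500 FPKM in the higher library. Among 925 genes under 1 FPKM in both libraries and above 0, the ratio of oe to nc took 793 different values when rounded to 3 decimals, which shows no step of 1 read, and depth is unknown.

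Log2 ratios used a pseudocount of 1 FPKM and a minimum of 1 FPKM in the higher library, with python 3.11.15, pandas 2.3.3 and numpy 2.4.6, and the calculations were tested on simulated data. With 1 library per group no test was made, so counts past 2-fold and medians are descriptions, set beside those of all genes. The 10 genes and the 13 other lists were chosen with earlier results of these data known. Named genes were the 10 genes, 7 regulators (NFE2L2, KEAP1, BACH1, MAFF, MAFG, MAFK and ATF4), the 3 genes with the largest absolute log2 ratio and the most abundant gene of each list, the 3 genes nearest to SLC7A11 and any gene that overlaps a member. TXN, TXNRD2, SLC7A5, GNMT, LYZ and the pairs of genes set in ratio were chosen after their values were seen. A result of the NADPH list is not reported here. Promoter windows came from RefSeq (GRCh38.p14) and were searched on both strands. The alternatives tried were 3 other pseudocounts, 3 other filters, 3 scalings, the subtraction of the median of the 500 genes nearest in level, and limits of 1.5-fold and 3-fold.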

Additional observations from a re-analysis of the deposited data

How the results depend on the processing

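Under the 12 alternatives tried, TXNRD1 and SLC7A11 stayed past the fold in 12 and GCLM in 11, the exception being the limit of 3-fold, where GCLM falls short. The log2 ratio ranged from 2.48 to 2.78 for TXNRD1, from 1.74 to 1.96 for SLC7A11 and from 1.53 to 1.69 for GCLM. None of the other 7 genes passed 2-fold under the pseudocounts, filters, scalings and subtraction tried, and GSR and SRXN1 changed sign as given with their values. The median of the 10 genes was 0.33 after both libraries were set to 1 common FPKM sum, which shifts the median of all genes by 0.10, and 0.36 with the median of the 500 genes nearest in level subtracted. Of 130 list medians recomputed 29 moved by over 0.1 or past 2-fold, and those of 5 lists changed sign (thioredoxin and peroxiredoxin, ATF4, transsulfuration, NADPH supply and selenoproteins), so no direction is given for these. No paired analysis was possible because each group has 1 library, and no library could be left out. The number of reads is unknown, so no interval can be given.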

Other observations

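Superoxide and peroxide enzymes outside the lists above were also read. SOD2, the mitochondrial superoxide dismutase, stood at 0.805 FPKM in the nc and 18.5 FPKM in the oe library, a log2 ratio of 3.44. NOX1, a superoxide-generating oxidase, stood at 0.0696 and 2.06 FPKM, and SOD2 and NOX1 lay under 1 FPKM in the nc library, so they were measured only because they were higher. SOD1, the cytosolic dismutase, stood at 143 and 108 FPKM, and SOD3, the secreted one, at 2.94 and 0.637 FPKM. Their log2 ratios were -0.40 and -1.27, and -0.05 and -1.36 with genes of like level subtracted. SOD3 lay under 1 FPKM in the oe library, so it was measured only because it was higher in the nc library. Of 7 measured genes of that list 2 were called higher and 1 lower, where 6.46% and 5.83% of all genes were. The median log2 ratio of the 7 was 0.42. It was 0.23 over the 4 genes at 1 FPKM or more in both libraries, of which 0 were called higher or lower.

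Ferroptosis is the iron-dependent cell death that GPX4 restrains. Of all genes, 6.46% were called higher and 5.83% lower. Of 25 measured genes of the lipid and iron arm of ferroptosis, 2 were called higher and 1 lower, with a median log2 ratio of -0.17. That median was -0.002 with genes of like level subtracted, so no direction is given for this list. The higher were FTH1, given above, and SAT1, the acetyltransferase of polyamine breakdown, at 27.1 FPKM in the nc and 81.0 FPKM in the oe library. The lower was GCH1, the first enzyme of tetrahydrobiopterin synthesis, at 9.51 and 1.4996 FPKM, a log2 ratio of -2.07.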
